A study of Canis lupus familiaris with 6 samples.

Results

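Telomerase and telomere maintenance were examined through 10 genes: TERT, DKC1, NHP2, NOP10, NAF1, ATRX, DAXX, TERF1, TERF2 and POT1. A probe set, the group of short probes that an Affymetrix array reads as a unit, was taken when the probe annotation gave 1 of these symbols and no other gene. This took 29 of the 43035 probe sets on the array and covered 9 of the 10 genes, out of 15115 genes with such a probe set. TERF1 had no probe set under its symbol and was not analysed here. Dim probe sets were kept.

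The arrays came from 6 primary lines of dog osteosarcoma, a malignant bone tumour. UWKOS1, UWKOS3 and UWKOS7 are labelled tumorigenic, meaning that they formed tumours after transplantation into mice, and UWKOS2, UWKOS6 and UWKOS8, which did not, are labelled non-tumorigenic (n = 3 each). All 6 lines were cultured and handled alike in medium with 10% serum and harvested before confluence, and RNA came from the cultures rather than from tumours in mice. Each line was arrayed once, and no normal bone or other control line was included. A p-value therefore sets the difference between group means against the spread of these lines within groups, moderated over all fitted probe sets.

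Telomeres are the repeat-bearing ends of chromosomes, and they shorten with cell division unless they are extended. Telomerase extends them with the reverse transcriptase TERT and an RNA template, and that RNA is held by the dyskerin complex (DKC1, NHP2 and NOP10), which NAF1 helps to assemble. The same complex also guides the pseudouridylation of ribosomal RNA in the nucleolus. Tumours without telomerase can lengthen telomeres by recombination, a route that in human tumours, osteosarcoma among them, is linked to loss of the chromatin remodeller ATRX or its histone chaperone partner DAXX. The shelterin complex, with TERF1, TERF2 and POT1, binds the repeats and shields chromosome ends from DNA repair.

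Values are log2 signals as deposited, and every difference is tumorigenic minus non-tumorigenic on that log2 scale. A probe set was called dim when its mean over the 6 lines lay under 6.07, the median of that mean over the non-control probe sets. The array medians ran from 6.03 to 6.05. The osteoblast-lineage genes COL1A1, COL1A2 and SPARC were bright in every line (12.28 to 14.60). The groups did not overlap for COL1A2, at 13.17 to 14.15 in the tumorigenic and 14.44 to 14.60 in the non-tumorigenic lines (difference -0.93, limma adjusted p = 0.0702), or for SPARC, at 12.41 to 13.31 in the tumorigenic and 13.52 to 13.71 in the non-tumorigenic lines (difference -0.88, limma adjusted p = 0.0757). Of all probe sets that were not dim, 16.9% had the tumorigenic lines below without overlap. RUNX2 and BGLAP lay close to the filter value (5.32 to 6.64), ALPL and IBSP were dim, and SP7 had no probe set. SPP1 was at 9.76 in UWKOS1 and at 2.789 to 3.298 in the other lines. COL1A1 and BGLAP differed by -0.55 and -0.44, and RUNX2 by 0.22 (limma adjusted p = 0.194, 0.354 and 0.541). Without the filter ALPL differed by -0.24, IBSP by 0.43 and SPP1 by 2.26 (limma adjusted p = 0.491, 0.0895 and 0.517). The IBSP groups did not overlap, with the tumorigenic lines above, as in 13.9% of all non-control probe sets. The log2 of the summed level of the 8 osteoblast markers with a probe set ran from 14.37 to 15.19 in the tumorigenic and from 15.39 to 15.61 in the non-tumorigenic lines; its part in the results was not tested. Of the 4 leukocyte markers, PTPRC was dim (4.86 to 5.17), while CD68, CD3E and CD14 were not. CD68 read 5.71 to 7.32 in the tumorigenic and 7.22 to 7.68 in the non-tumorigenic lines. The difference was -1.07 for CD68, -0.35 for CD3E and 0.04 for CD14 (limma adjusted p = 0.143, 0.311 and 0.904). The summed level of the 4 markers (log2) ran from 7.81 to 8.37 in the tumorigenic and 8.30 to 8.63 in the non-tumorigenic lines. The epithelial markers EPCAM, KRT8 and CDH1 were dim by their means, and KRT5 had no probe set. EPCAM was at 7.65 in UWKOS1, and KRT8 was at 6.49 in UWKOS1 and 6.64 in UWKOS3. Without the filter EPCAM differed by 1.48, KRT8 by 2.54 and CDH1 by -0.12 (limma adjusted p = 0.443, 0.183 and 0.589). The log2 of the summed level of these 3 markers was 8.26, 7.03 and 5.32 in UWKOS1, UWKOS3 and UWKOS7. That level ran from 5.24 to 5.27 in the non-tumorigenic lines. The endothelial marker PECAM1 was dim throughout, at 4.67 to 5.17 in the tumorigenic and 3.97 to 4.21 in the non-tumorigenic lines, and rose by 0.84 (limma adjusted p = 0.0451 without the filter). CDH5 (7.34 to 7.72) differed by -0.04 (limma adjusted p = 0.887), and the dim VWF by 0.05 (limma adjusted p = 0.934 without the filter). The summed level of the 3 endothelial markers overlapped between the groups. The skeletal muscle markers DES and the dim MYOG differed by 0.40 and -0.16 (limma adjusted p = 0.377, and 0.410 without the filter). The signal of the GAPDH 3′ end over its 5′ end, a measure of transcript integrity, was 0.86, 0.88 and 1.07 (log2) in UWKOS1, UWKOS3 and UWKOS7, against 0.95, 1.21 and 1.98 in UWKOS2, UWKOS6 and UWKOS8. In the same order of lines, the EF1A ratio was 8.55, 8.21 and 7.90 against 9.09, 8.68 and 8.02. The actin ratio was 2.44, 2.49 and 2.925 against 2.55, 3.49 and 3.31. The 3 ratios thus ranked the lines differently, and only that of GAPDH was used as a covariate.

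DKC1, NAF1 and TERF2 were higher in the tumorigenic lines, while TERT, ATRX, DAXX and POT1 did not pass the test. Of the 29 probe sets, 21 lay at or above the filter value, and of these 6 rose, 0 fell and 15 did not pass (limma with Benjamini-Hochberg adjustment over all 21462 tested probe sets, threshold 0.05). Over all tested probe sets, 7.28% were called higher and 4.74% lower. At an unadjusted p under 0.05, 9 of the 21 were higher and 0 lower, against 18.9% and 12.9% of all tested probe sets. The 8 dim probe sets were tested in a fit of all 42924 non-control probe sets, where 5.05% were called, 3.06% higher and 1.99% lower; 1 of the 8, for NAF1, rose, and 0 fell. The groups did not overlap in 9 of the 21 probe sets with the tumorigenic lines above (42.9%, against 21.3% of all tested) and in 4 with the tumorigenic lines below (19.0%, against 16.9%). The median difference of the 21 was -0.00630, against 0.03 over all tested probe sets. The 6 calls became 1 without UWKOS6 and 3 without UWKOS3 or UWKOS8. Probe sets with the same symbol read 1 gene and are not independent of each other.

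**Figure D1:**
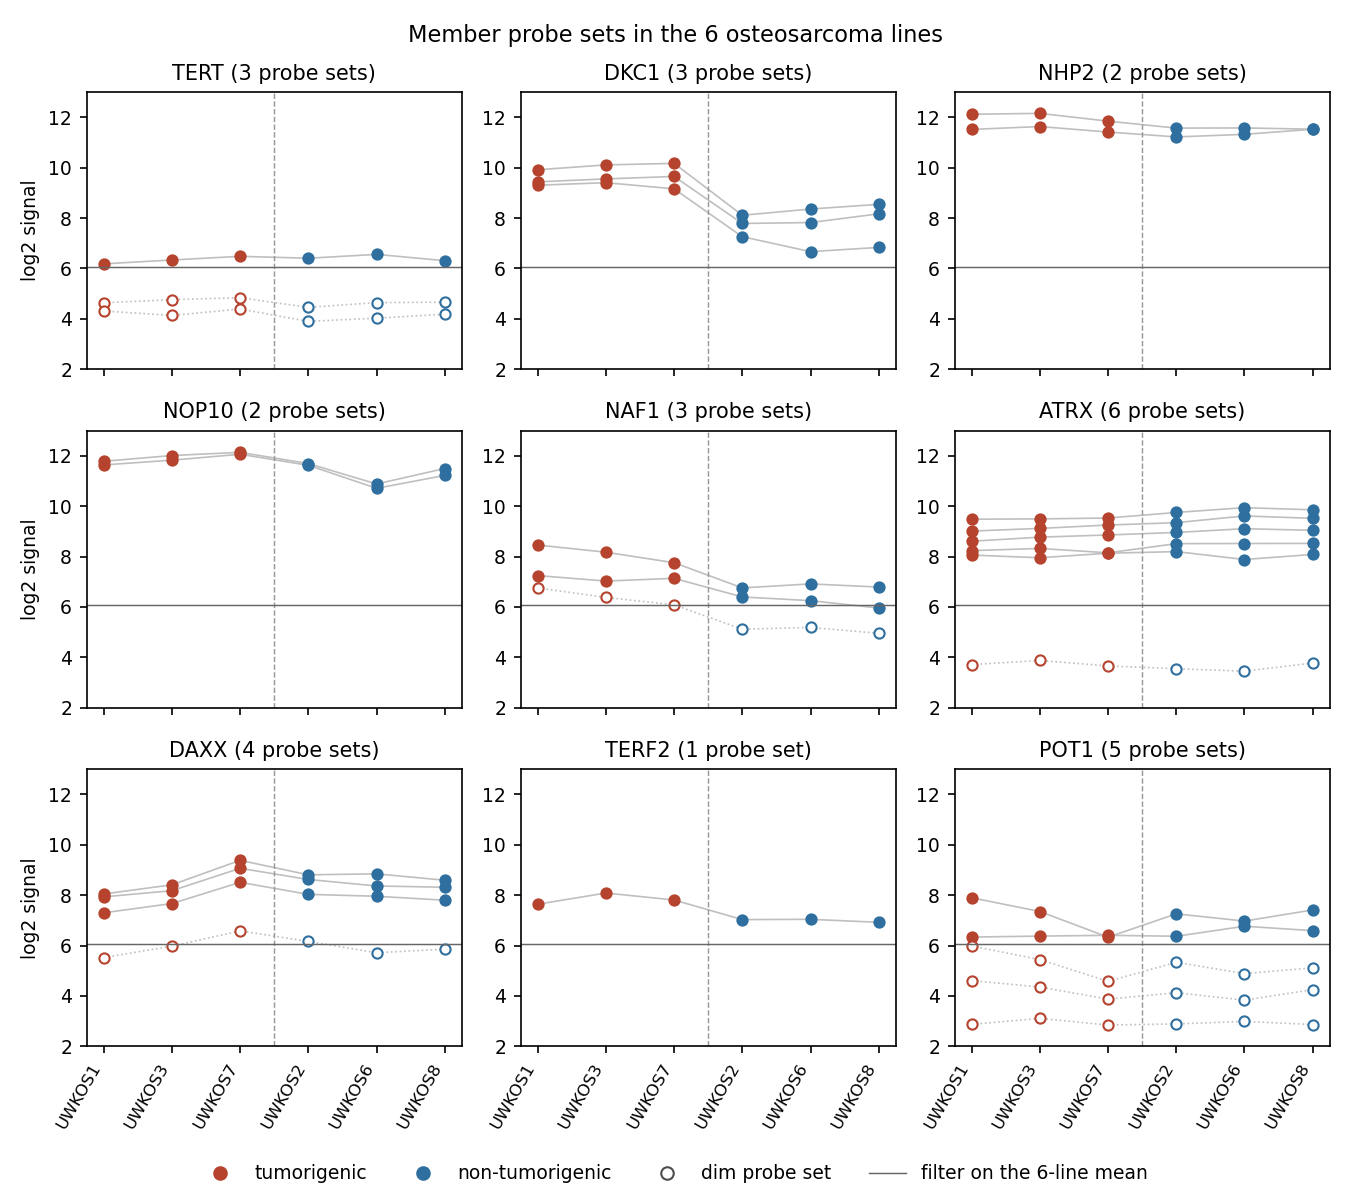
Log2 signal (y axis) of each of the 29 probe sets in the 6 lines (x axis), 1 panel per gene, with tumorigenic lines left of the dashed line; open points are dim probe sets and the horizontal line is the filter value of 6.07. On each DKC1 and NAF1 probe set the tumorigenic lines all lie above the non-tumorigenic lines, and TERT lies near or under the filter value in every line.

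TERT, the catalytic subunit of telomerase, gave a signal near or below the filter value in every line. Its brightest probe set (CfaAffx.16784.1.S1_s_at) read 6.18, 6.34 and 6.48 in UWKOS1, UWKOS3 and UWKOS7, and 6.41, 6.56 and 6.31 in UWKOS2, UWKOS6 and UWKOS8. The groups overlapped, with a difference of -0.09 (95% interval -0.49 to 0.30, limma adjusted p = 0.737). The other TERT probe sets were dim, at 3.90 to 4.84 over all lines, and differed by 0.16 and 0.24 without passing (limma adjusted p = 0.498 and 0.342). The signs therefore disagreed among the TERT probe sets. No detection calls were used, so it is not known whether TERT lay above background in any line. Telomerase activity was not measured.

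DKC1, the pseudouridine synthase dyskerin that binds telomerase RNA, rose on all 3 of its probe sets. On the brightest (Cfa.15181.1.A1_at) it read 9.92, 10.11 and 10.17 in UWKOS1, UWKOS3 and UWKOS7, and 8.11, 8.36 and 8.54 in UWKOS2, UWKOS6 and UWKOS8. The lowest tumorigenic line was thus well above the highest non-tumorigenic line, and the spread within either group was small beside the gap. The difference was 1.73 with an SE of 0.18, or 3.31-fold (limma adjusted p = 0.0117). A second probe set from the same expressed sequence (Cfa.15181.1.A1_s_at) rose by 1.62 with an SE of 0.18 (limma adjusted p = 0.0121). The remaining probe set (Cfa.19618.1.S1_s_at) read 9.30, 9.40 and 9.16 in UWKOS1, UWKOS3 and UWKOS7, and 7.26, 6.67 and 6.83 in UWKOS2, UWKOS6 and UWKOS8, a rise of 2.37 with an SE of 0.20 (limma adjusted p = 0.00735). This was the largest difference of any member probe set. Without UWKOS6 it was the only member probe set that passed, and the differences on the other DKC1 probe sets were then 1.74 and 1.57 (limma adjusted p = 0.0686 for each). With the GAPDH end ratio as a covariate the DKC1 differences were 1.91, 1.80 and 2.23 (limma adjusted p = 0.0564, 0.0564 and 0.0622). In that fit 9 of the 21462 probe sets rose and 18 fell.

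NAF1, which brings dyskerin to newly made telomerase RNA and other H/ACA RNAs, also rose on all 3 of its probe sets. The brightest (Cfa.18509.1.S1_s_at) read 8.46, 8.17 and 7.76 in UWKOS1, UWKOS3 and UWKOS7, and 6.76, 6.92 and 6.79 in UWKOS2, UWKOS6 and UWKOS8. The groups did not overlap, UWKOS1 was the highest line, and the non-tumorigenic lines lay close together. The difference was 1.31 with an SE of 0.21, or 2.48-fold (limma adjusted p = 0.0222). The next probe set (Cfa.18509.2.S1_a_at) rose by 0.93 (limma adjusted p = 0.0287), and the dim one (Cfa.18509.2.S1_at) by 1.32 (limma adjusted p = 0.0273 in the fit without the filter). The brightest NAF1 probe set did not pass without UWKOS2, UWKOS3, UWKOS6 or UWKOS8, with limma adjusted p = 0.0520, 0.0601, 0.0891 and 0.0708 and differences of 1.28 to 1.36. The second probe set did not pass without UWKOS1, UWKOS3, UWKOS6 or UWKOS8, nor the dim one without UWKOS2, UWKOS3, UWKOS6 or UWKOS8. With the GAPDH end ratio as a covariate the brightest differed by 1.25 (limma adjusted p = 0.112).

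NHP2 and NOP10, the small dyskerin partners, were among the brightest members and did not pass the test. NHP2 read 12.12, 12.15 and 11.84 in UWKOS1, UWKOS3 and UWKOS7, and 11.57, 11.57 and 11.52 in UWKOS2, UWKOS6 and UWKOS8 on its brighter probe set (Cfa.17810.1.S1_s_at). The groups did not overlap there, with a difference of 0.48 (95% interval 0.10 to 0.86, limma adjusted p = 0.0937). On the other NHP2 probe set (Cfa.17810.1.S1_at) the groups overlapped, and the difference was 0.17 (limma adjusted p = 0.523). NOP10 read 11.78, 12.01 and 12.13 in UWKOS1, UWKOS3 and UWKOS7, and 11.69, 10.88 and 11.49 in UWKOS2, UWKOS6 and UWKOS8 (Cfa.4420.1.A1_at). UWKOS2 lay just under UWKOS1, and UWKOS6 was the lowest line. The NOP10 difference was 0.62 (95% interval 0.02 to 1.22, limma adjusted p = 0.147), and its other probe set differed by 0.66 (limma adjusted p = 0.149). Both genes thus gave positive differences on every probe set, smaller than those of DKC1 and NAF1.

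**Figure D2:**
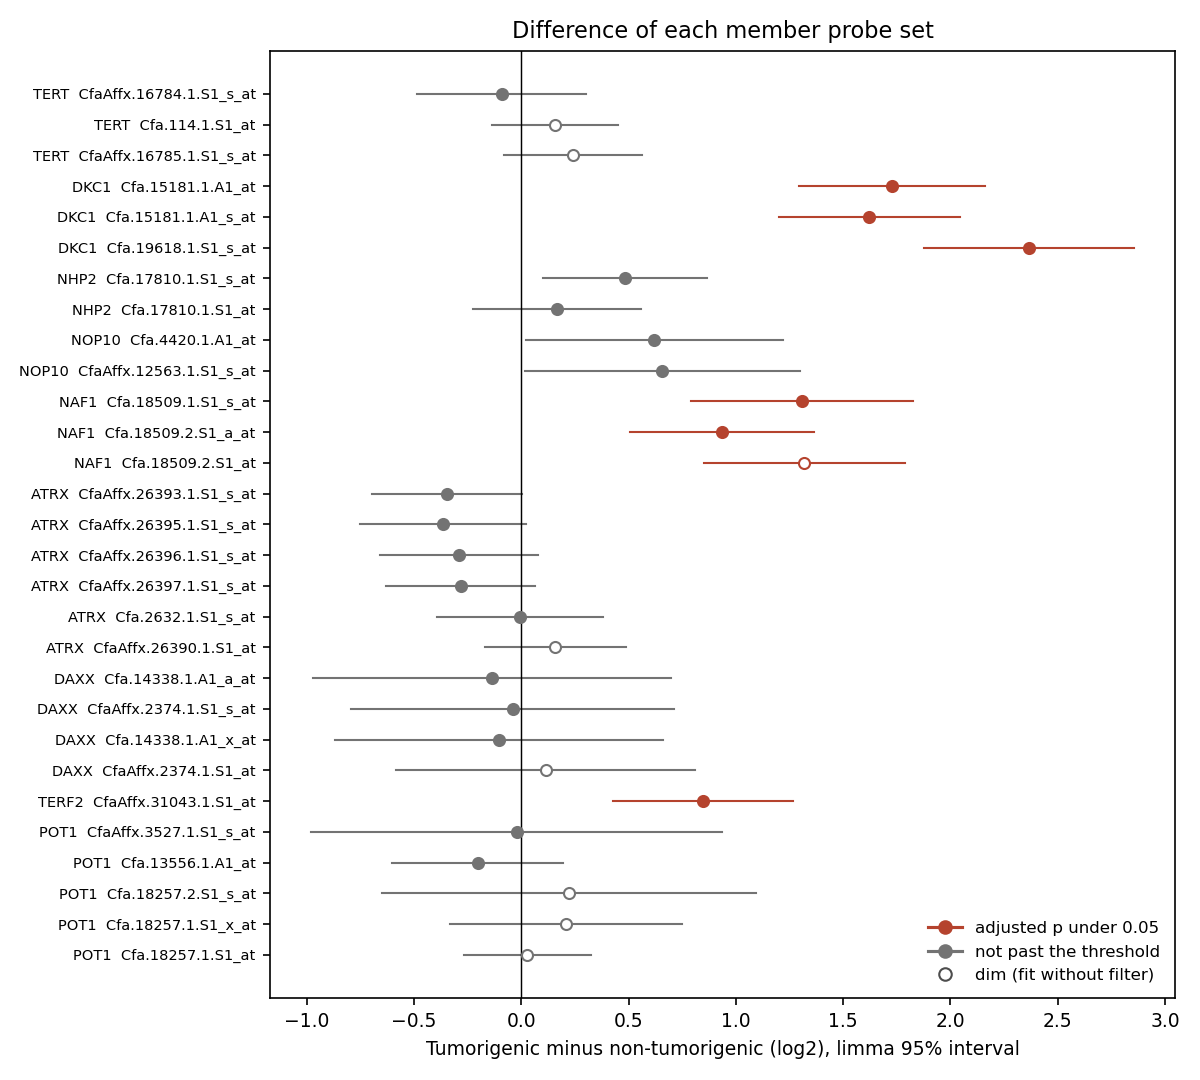
Difference of each member probe set, tumorigenic minus non-tumorigenic (x axis, log2), with its limma 95% interval; red marks probe sets past the threshold and open points are dim ones from the fit without the filter. The red points belong to DKC1, NAF1 and TERF2, with differences of 0.85 to 2.37.

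ATRX, the chromatin remodeller that places histone H3.3 at telomeres together with DAXX, was well expressed in every line and did not pass the test. Its brightest probe set (CfaAffx.26393.1.S1_s_at) read 9.48, 9.49 and 9.53 in UWKOS1, UWKOS3 and UWKOS7, and 9.75, 9.94 and 9.85 in UWKOS2, UWKOS6 and UWKOS8. The tumorigenic lines lay below the others by a small and even margin, a difference of -0.35 (95% interval -0.70 to 0.00328, limma adjusted p = 0.160). In 4 of the 5 ATRX probe sets past the filter the groups did not overlap and the tumorigenic lines were lower, with differences of -0.28 to -0.36. The same held for 16.9% of all tested probe sets, and these 4 read 1 gene and are not independent of each other. The fifth (Cfa.2632.1.S1_s_at) read 7.88 to 8.20 over all lines and differed by -0.00630 (limma adjusted p = 0.982). Of these 5 probe sets 0 were called by limma, and 0 had an unadjusted p under 0.05. In the fit by gene, over each gene's brightest probe set, the unadjusted p of ATRX was 0.0452 and the adjusted p 0.146. The dim ATRX probe set differed by 0.16 (limma adjusted p = 0.544). No line stood out with a low ATRX signal: over the 5 brighter probe sets the lowest value in any line was 7.88.

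DAXX varied more within the tumorigenic group than between the groups. On its brightest probe set (Cfa.14338.1.A1_a_at) it read 8.04, 8.41 and 9.38 in UWKOS1, UWKOS3 and UWKOS7, and 8.80, 8.84 and 8.59 in UWKOS2, UWKOS6 and UWKOS8. UWKOS1 was the lowest and UWKOS7 the highest of the 6 lines, with the non-tumorigenic lines between them. The difference of the group means was -0.14 (95% interval -0.97 to 0.70, limma adjusted p = 0.817). All 4 DAXX probe sets had their lowest value in UWKOS1 and their highest in UWKOS7. The tumorigenic lines spanned 1.34 on the brightest probe set, and the non-tumorigenic lines 0.25. The other DAXX probe sets differed by -0.10 to 0.11, and the limma adjusted p over the 4 ran from 0.817 to 0.942.

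To set telomerase assembly against ATRX and DAXX, each gene was expressed as the deviation of its brightest probe set from its own mean over the 6 lines. The mean deviation of DKC1, NHP2, NOP10 and NAF1 was 0.53, 0.58 and 0.44 in UWKOS1, UWKOS3 and UWKOS7, and -0.50, -0.60 and -0.45 in UWKOS2, UWKOS6 and UWKOS8. The mean deviation of ATRX and DAXX was -0.41, -0.23 and 0.28 in UWKOS1, UWKOS3 and UWKOS7, and 0.10, 0.21 and 0.05 in UWKOS2, UWKOS6 and UWKOS8. The assembly genes thus split the lines by group, whereas the mean of ATRX and DAXX did not, UWKOS7 being the highest line. ATRX alone did split them, at -0.19, -0.18 and -0.15 in UWKOS1, UWKOS3 and UWKOS7, and 0.0752, 0.27 and 0.18 in UWKOS2, UWKOS6 and UWKOS8, while DAXX stood at 0.70 in UWKOS7. Assembly minus ATRX and DAXX averaged 0.64 ± 0.42 in the tumorigenic lines and -0.64 ± 0.17 in the non-tumorigenic lines (SD, n = 3 each). The difference was 1.28, with 1.03 for the assembly genes and -0.24 for ATRX and DAXX. It is given as a description with no test, because the genes were chosen with earlier results known. DKC1 and NAF1 carry most of the assembly term. Adding TERT to the assembly genes gave 1.05, and leaving out each line in turn gave 1.12 to 1.51.

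**Figure D3:**
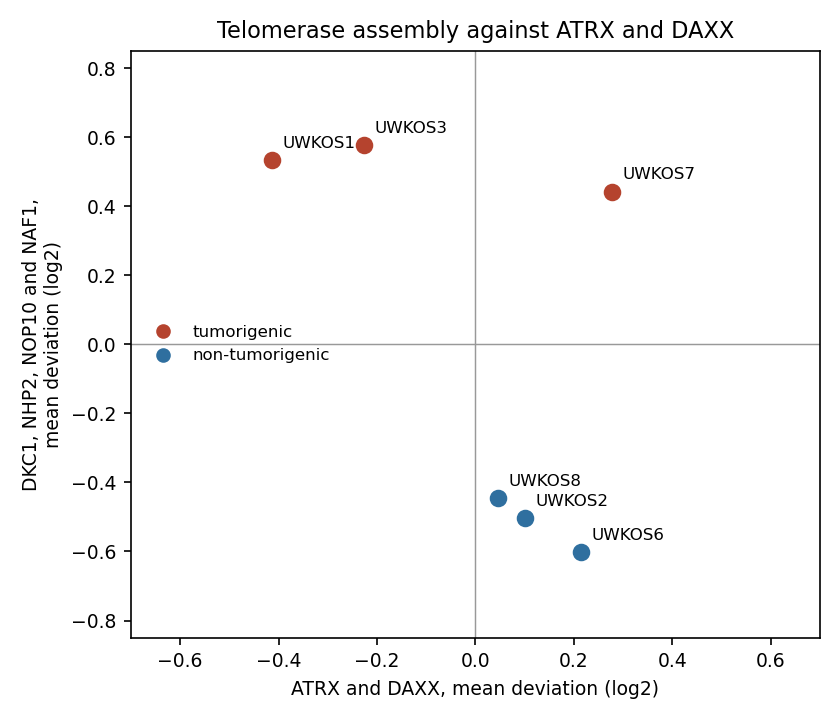
Mean log2 deviation of DKC1, NHP2, NOP10 and NAF1 (y axis) against that of ATRX and DAXX (x axis), 1 point per line. The 3 tumorigenic lines sit at 0.44 to 0.58 on the y axis and the 3 non-tumorigenic lines at -0.60 to -0.45, while UWKOS7 lies to the right of the other tumorigenic lines.

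TERF2, the shelterin protein that holds the telomere loop closed and blocks end joining, rose in the tumorigenic lines on its only probe set (CfaAffx.31043.1.S1_at). It read 7.64, 8.08 and 7.80 in UWKOS1, UWKOS3 and UWKOS7, and 7.03, 7.04 and 6.92 in UWKOS2, UWKOS6 and UWKOS8. The groups did not overlap, and the difference was 0.85 with an SE of 0.17, or 1.80-fold (limma adjusted p = 0.0332). TERF2 did not pass without UWKOS2, UWKOS3, UWKOS6 or UWKOS8, where limma adjusted p was 0.0705, 0.0782, 0.121 and 0.104 and the differences were 0.73 to 0.87. With the GAPDH end ratio as a covariate it differed by 0.80 (limma adjusted p = 0.151).

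POT1, the shelterin protein that binds the single-stranded overhang, did not pass on any of its 5 probe sets, 3 of which were dim. Its brightest (CfaAffx.3527.1.S1_s_at) read 7.90, 7.35 and 6.33 in UWKOS1, UWKOS3 and UWKOS7, and 7.26, 6.97 and 7.41 in UWKOS2, UWKOS6 and UWKOS8. UWKOS1 was the highest and UWKOS7 the lowest of the 6 lines, the reverse of DAXX. The group means differed by -0.02 (95% interval -0.98 to 0.94, limma adjusted p = 0.976). The dim Cfa.18257.2.S1_s_at kept that order among the tumorigenic lines, at 5.98, 5.44 and 4.58 in UWKOS1, UWKOS3 and UWKOS7, as did Cfa.18257.1.S1_x_at at 4.61, 4.35 and 3.87. The other bright probe set (Cfa.13556.1.A1_at) was flat across the tumorigenic lines, at 6.34 to 6.40, so the POT1 probe sets disagreed on the low value in UWKOS7. The differences over the 5 probe sets ran from -0.20 to 0.22 (limma adjusted p = 0.444 to 0.976).

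**Figure D4:**
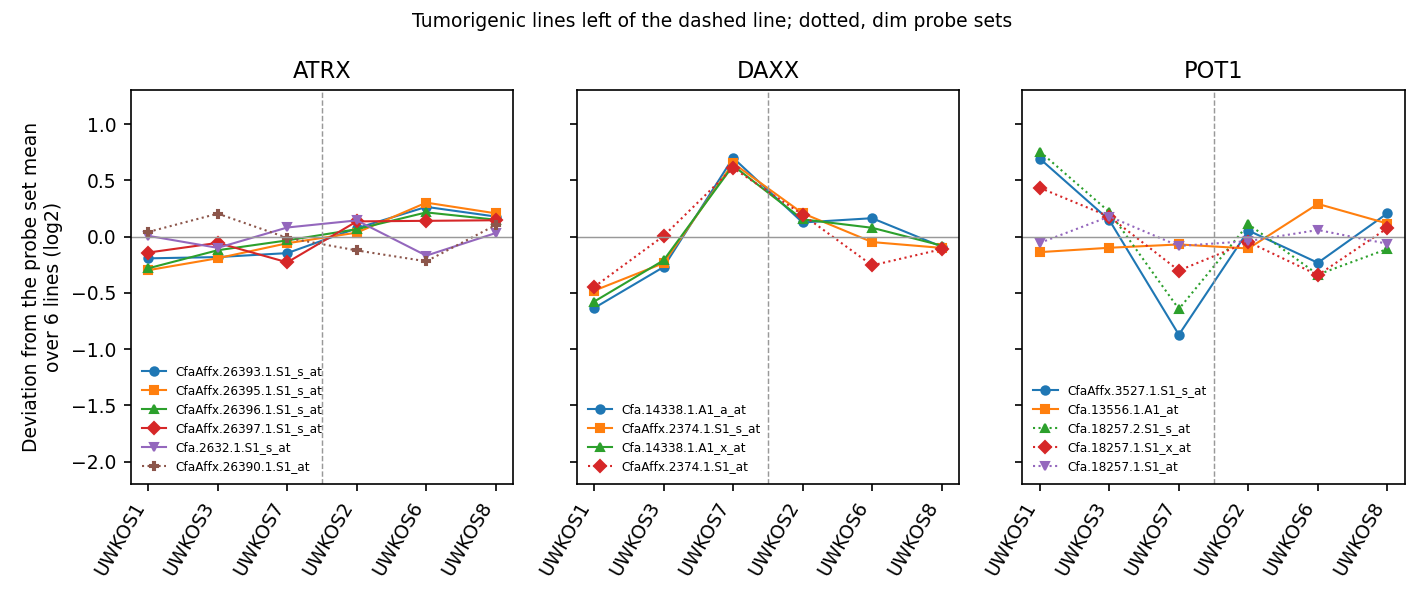
Deviation of each ATRX, DAXX and POT1 probe set from its own mean over the 6 lines (y axis, log2) by line (x axis), with tumorigenic lines left of the dashed line and dim probe sets dotted. All 4 DAXX probe sets are lowest in UWKOS1 and highest in UWKOS7, and the brightest POT1 probe set runs the opposite way.

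The other shelterin proteins and the CST complex, which ends telomere synthesis and fills in the complementary strand, held 0 called genes. These and the following lists were taken gene by gene from the brightest probe set, with p-values adjusted over 9145 genes, of which 7.50% were called higher and 4.63% lower; the median difference of all genes was 0.03. At an unadjusted p under 0.05, 19.4% of these genes were higher and 12.6% lower. With the GAPDH end ratio as a covariate, or without both UWKOS6 and UWKOS8, 0 genes of any list passed; of all genes, 4 then rose and 6 fell with the covariate, and 1 rose and 0 fell without the pair of lines. With single lines left out, the number of all genes that rose, 686 in the full fit, was 343 without UWKOS1, 188 without UWKOS3, 823 without UWKOS7, 291 without UWKOS2, 5 without UWKOS6 and 233 without UWKOS8, and the list counts in those fits stand beside these totals. Of 5 measured shelterin and CST genes, 0 passed limma, and at an unadjusted p under 0.05 there was 1 higher and 1 lower; the list median was 0.17. TINF2, which bridges the shelterin proteins, read 8.40, 8.23 and 8.13 in UWKOS1, UWKOS3 and UWKOS7, and 7.80, 7.80 and 7.85 in UWKOS2, UWKOS6 and UWKOS8, a difference of 0.44 (limma adjusted p = 0.0989). TERF2IP, the shelterin partner of TERF2, went the other way, at 10.60, 10.99 and 10.86 in UWKOS1, UWKOS3 and UWKOS7, and 11.51, 11.25 and 11.23 in UWKOS2, UWKOS6 and UWKOS8, a difference of -0.52 (limma adjusted p = 0.102). The groups did not overlap for either gene. Of all tested probe sets, 21.3% had the tumorigenic lines above without overlap and 16.9% had them below. ACD, the POT1 partner that recruits telomerase, differed by 0.50 (limma adjusted p = 0.251), and the CST genes CTC1 and STN1 by -0.15 and 0.17 (limma adjusted p = 0.716 and 0.756). STN1 had the order of POT1 among the tumorigenic lines, with 8.08, 7.39 and 6.85 in UWKOS1, UWKOS3 and UWKOS7.

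Further factors of telomerase assembly and of H/ACA particles were higher in part. Among the 12 measured genes 4 rose and 0 fell, and the median difference was 0.62. At an unadjusted p under 0.05, 7 were higher and 1 lower. GAR1, which replaces NAF1 in the mature dyskerin particle, read 9.40, 9.30 and 9.30 in UWKOS1, UWKOS3 and UWKOS7, and 8.21, 7.82 and 7.83 in UWKOS2, UWKOS6 and UWKOS8. It rose by 1.38 with an SE of 0.17 (limma adjusted p = 0.0144). The nucleolar proteins NOLC1 and TCOF1, which bind H/ACA particles and RNA polymerase I, rose by 1.64 and 1.52, and RUVBL2, an ATPase needed for dyskerin assembly, rose by 1.16. COIL, the scaffold of Cajal bodies, differed by 0.67 (limma adjusted p = 0.0516). Without UWKOS6, 0 of the 12 passed, and the list median was 0.57.

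Other genes of the nucleolus and of proliferation were also higher in part. The 9 measured box C/D and nucleolar factors, which do not belong to telomerase, had a median difference of 1.28; 4 rose and 0 fell (at an unadjusted p under 0.05, 9 higher and 0 lower). FBL, the box C/D methyltransferase, rose by 1.58, NOP56 by 1.43, NOP58 by 1.37 and the nucleolar chaperone NPM1 by 1.28, while POLR1A differed by 1.36 (limma adjusted p = 0.0576). The 9 measured proliferation genes had a median of 1.38, and 3 rose while 0 fell (at an unadjusted p under 0.05, 7 higher and 0 lower). The helicase subunits MCM2 and MCM3 rose by 2.40 and 2.11 and the mitotic kinase AURKA by 2.16. As a mean deviation over the list, proliferation was at 0.61 to 0.86 in the tumorigenic and -1.31 to -0.04 in the non-tumorigenic lines, and box C/D and nucleolar factors were at 0.35 to 0.72 in the tumorigenic and -0.68 to -0.44 in the non-tumorigenic lines. The log2 of the summed level of the proliferation genes ran from 15.23 to 15.37 in the tumorigenic and from 13.89 to 14.92 in the non-tumorigenic lines. Their part in the rise of DKC1 and NAF1 was not tested. Without UWKOS6, 0 genes of either list passed; without UWKOS8, 6 proliferation genes did; without UWKOS3, 1 did; and without UWKOS7, 7 nucleolar factors did.

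Genes of the recombination route to telomere lengthening and of H3.3 deposition were in part higher. The 26 measured genes included 8 that rose and 0 that fell, around a median difference of 0.54 (at an unadjusted p under 0.05, 12 higher and 0 lower). The SMC5/6 complex, which adds SUMO to telomere proteins in cells of that route, rose in its core subunits, SMC6 by 1.19 and SMC5 by 0.88. FANCM, a fork remodeller, read 8.88, 8.53 and 8.15 in UWKOS1, UWKOS3 and UWKOS7, and 6.07, 5.43 and 7.21 in UWKOS2, UWKOS6 and UWKOS8, a rise of 2.28 (limma adjusted p = 0.0321). RAD51AP1, a recombination factor, rose by 2.05, the polymerase delta subunit POLD3 by 1.20 and RMI2 of the Bloom helicase complex by 1.38. TOP3A and CBX5 made up the 8; SMC5, TOP3A and CBX5 lay outside the rule for named genes and were picked once their values were known. The H3.3 genes H3-3A and H3-3B, also chosen afterwards, differed by -0.17 and 0.01 (limma adjusted p = 0.524 and 0.963). The number that rose was 0 without UWKOS3 or UWKOS6, 1 without UWKOS2, 2 without UWKOS1, 3 without UWKOS8 and 9 without UWKOS7, and the median lay between 0.40 and 0.67 in those fits.

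Telomere replication and end processing had 14 measured genes, whose median difference was 0.97; 3 rose and 0 fell (at an unadjusted p under 0.05, 11 higher and 0 lower). The nuclease EXO1, which resects telomere ends, read 8.09, 8.19 and 7.98 in UWKOS1, UWKOS3 and UWKOS7, and 5.95, 5.43 and 6.47 in UWKOS2, UWKOS6 and UWKOS8, a rise of 2.14 (limma adjusted p = 0.0153). The primase-polymerase subunit POLA2 rose by 1.65, and DCLRE1B, the Apollo nuclease that TERF2 recruits to leading-strand ends, rose by 1.45. POLA1 and FEN1 differed by 0.91 and 1.22 (limma adjusted p = 0.0544 and 0.0618). The count was 0 without UWKOS6, 1 without UWKOS2 or UWKOS3, 5 without UWKOS7, 2 without UWKOS1 and 3 without UWKOS8.

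Several factors known to act on the TERT promoter in human cells were higher. TERT itself did not pass, and a link between these factors and TERT was not tested. Of the 14 listed factors 13 had a probe set, and 3 of these were dim. The median difference of the 10 measured was 0.72, and the difference was positive for 7. Of these 10, 4 rose while 0 fell (at an unadjusted p under 0.05, 5 higher and 1 lower). GABPA and GABPB1, subunits of the ETS factor that activates mutant TERT promoters, rose by 1.41 and 1.02. GABPA read 9.32, 8.45 and 8.53 in UWKOS1, UWKOS3 and UWKOS7, and 7.38, 7.18 and 7.52 in UWKOS2, UWKOS6 and UWKOS8. MYC, an activator of TERT and of DKC1, rose by 1.32, and the insulator protein CTCF by 0.72. HIF1A differed by -0.50 (limma adjusted p = 0.0679), and it was called lower when limma was given an intensity trend (adjusted p = 0.0370), where 3 of the 10 rose. The number that rose was 2 without UWKOS1, UWKOS2 or UWKOS7 and 0 without UWKOS3, UWKOS6 or UWKOS8.

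**Figure D5:**
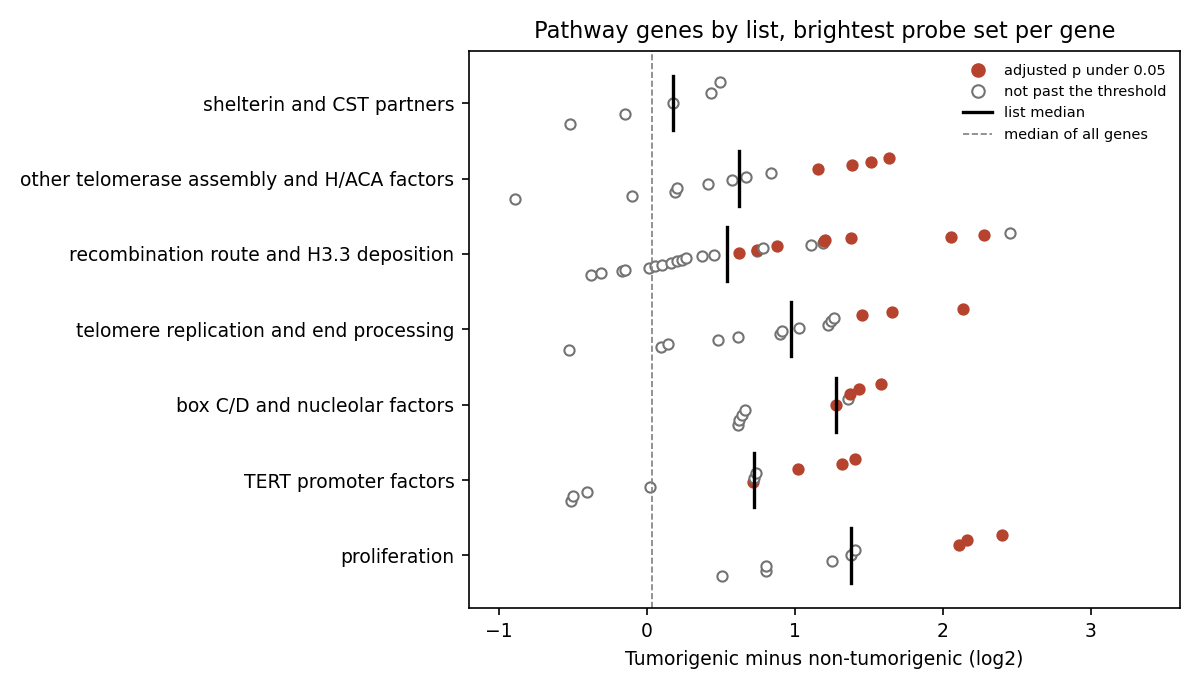
Differences of the genes of each list, tumorigenic minus non-tumorigenic (x axis, log2), by the brightest probe set; red points passed the threshold and black bars are list medians. The dashed line is the median of all 9145 genes (0.03), and the medians of the box C/D and nucleolar list (1.28) and of the proliferation list (1.38) lie furthest from it.

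The genes whose pattern over the 6 lines was most like that of DKC1 were C1H9orf85, DBR1, the debranching enzyme of intron lariats, and PYGL, a glycogen phosphorylase, with Pearson r of 0.997, 0.996 and 0.995. They were ranked among 3092 genes with an SD of at least 0.5 over the lines, of which 356 had an r of at least 0.9. For ATRX the most similar were the focal adhesion protein ZYX, the amidase NTAN1 and the MYB family member MYBL1, with r of 0.994, 0.992 and 0.991 over the same 6 lines, and 248 of 3093 genes had an r of at least 0.9. The 6 points fall into separate groups for DKC1 and for ATRX, and all genes were read from the same arrays, so the correlations are given as a description only.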

How the data were processed

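RNA from 6 lines was hybridised to Affymetrix canine arrays, from 10 µg of total RNA, per the labels' protocols. The deposited values are on a log2 scale with nearly equal quantiles; the submitters' processing notes name MAS5 alone, and the summary method behind the values is not settled here. They were used as deposited, with 0 columns left out. The 111 control probe sets stayed out of the tests. Symbols came from the platform annotation, and were updated by gene identifier from RefSeq for 27680 of 29254 probe sets with 1 symbol; 439 had several and 13231 none here. Tumorigenic lines were set against non-tumorigenic lines in R 4.3.3 with limma 3.58.1 (lmFit, then eBayes, without covariates) over probe sets at or above the median mean, and dim members without that filter; the fit was tested on simulated data. For lists, each gene's brightest probe set was fitted. Named were all members and up to 5 genes per list by smallest p. Other filters, scalings, eBayes settings, the GAPDH end ratio and left-out lines were tried as alternatives. The members and lists were chosen with earlier results of these data known. Replicate numbers follow accession order and pair nothing. Figures used matplotlib 3.10.9.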

Additional observations from a re-analysis of the deposited data

How the results depend on the processing

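The number of member probe sets that rose was 6, and it was 7 without the filter and 6 with robust eBayes, an intensity trend, 75th percentile centring or quantile normalization. It was 3 with the upper-quartile filter, which tests only 13 of the 29 probe sets. It was 0 with the GAPDH end ratio added to the fit and 0 without both UWKOS6 and UWKOS8, where UWKOS2 is alone in its group and is assumed to vary like the tumorigenic lines. Leaving out each line in turn gave 1 to 6, the lowest without UWKOS6. Over all tested probe sets 1563 rose and 1017 fell; with the covariate these counts were 9 and 18, without both lines 3 and 6, and with each line left out 18 to 1939 and 34 to 1230. The cause of these changes was not tested. By construction, fits with lines left out have fewer lines, and the fit with the covariate has fewer degrees of freedom. All 7 calls on DKC1, NAF1 and TERF2 kept a positive difference in every fit that gave a value, and 0 members fell in any. Signs turned only for probe sets and genes that did not pass in any fit. With single lines left out, Cfa.2632.1.S1_s_at of ATRX ran from -0.0920 to 0.0646, turning without UWKOS2, UWKOS8 or UWKOS3. For DAXX, Cfa.14338.1.A1_a_at ran from -0.52 to 0.148 and Cfa.14338.1.A1_x_at from -0.445 to 0.160, turning without UWKOS1, CfaAffx.2374.1.S1_s_at from -0.378 to 0.189, turning without UWKOS1, UWKOS2 or UWKOS3, and CfaAffx.2374.1.S1_at from -0.163 to 0.366, turning without UWKOS7. For POT1, CfaAffx.3527.1.S1_s_at ran from -0.373 to 0.410, turning without UWKOS2, UWKOS7 or UWKOS8, Cfa.18257.2.S1_s_at from -0.100 to 0.5998, turning without UWKOS1, and Cfa.18257.1.S1_at from -0.0547 to 0.0763, turning without UWKOS3. CTC1 ran from -0.341 to 0.0700 and STN1 from -0.146 to 0.470, each turning without UWKOS1. Without both UWKOS6 and UWKOS8, CfaAffx.2374.1.S1_at of DAXX was at -0.139, Cfa.13556.1.A1_at and Cfa.18257.2.S1_s_at of POT1 at 0.00340 and -0.000467, and CTC1 at 0.0706. With the covariate, Cfa.18257.1.S1_at of POT1 was at -0.00753 and CTC1 at 0.00714, and with 75th percentile centring Cfa.18257.1.S1_at was at -0.0498. For the lists, the upper-quartile filter gave 4 recombination, 2 TERT promoter and 5 proliferation genes that rose, against 8, 4 and 3. That filter keeps only probe sets with a mean of at least 8.08. RMI2, SMC5, TOP3A and GABPB1, among others, were thus called in the main fit but not tested there, so these counts cover fewer genes. The alternatives for lists were added after the data were seen. No paired analysis was possible because the labels give the lines no shared replicate numbers. Without detection calls, the signals of dim probe sets such as those of TERT have no known distance from background.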
